A study of Homo sapiens with 12 samples.

Results

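The 8 genes described here are the CDK inhibitor genes CDKN2A, CDKN2B, CDKN2C and CDKN2D (the INK4 family) and CDKN1A, CDKN1B and CDKN1C (the CIP/KIP family), together with RB1. They were taken by name and make up 8 of the 19974 protein-coding genes measured. In MKL-1 cells grown with EPZ011989, no H3K27me3 peak lay at any of the 8, whereas vehicle cells carried H3K27me3 at CDKN1A, CDKN1C and CDKN2D. H3K4me3 stayed at those 3 genes, and also at CDKN2C, CDKN1B and RB1, in every library. CDKN2A and CDKN2B had neither mark in any library.

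CDK inhibitors brake the cell cycle before DNA replication. INK4 proteins bind CDK4 and CDK6 and keep them from pairing with D-type cyclins, while CIP/KIP proteins also act on cyclin-CDK2 complexes. Active CDKs phosphorylate the retinoblastoma protein RB1, which in its unphosphorylated form holds E2F transcription factors in check. Several of these genes, CDKN2A above all, are textbook targets of Polycomb repression, in which EZH2 places H3K27me3. H3K4me3 marks active or poised gene starts, and a start under both marks is called bivalent.

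MKL-1 is an established Merkel cell carcinoma line, and Merkel cell polyomavirus, which it carries, makes a large T antigen that binds RB1. Cultures received 3 µM of the EZH2 inhibitor EPZ011989 in 1% ethanol or 1% ethanol alone, were refreshed on day 3 and were harvested on day 6. The assay was CUT&RUN, in which a nuclease tethered to an antibody releases the DNA around a histone mark. Each treatment gave 2 H3K27me3, 2 H3K4me3 and 2 IgG control libraries, 12 in all. They come from 1 line, and the labels do not say whether replicates were separate cultures, so p-values measure only the spread between these libraries, which may be technical.

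The value used throughout is the covered length, the bases of a gene's window that lie inside a library's peaks. The window takes in 2500 bp on either side of each end of the gene on GRCh38 and holds 10002 bp, or 7558 bp at CDKN1C and 7520 bp at CDKN2D, whose ends lie close together. The H3K27me3 lists held 363 and 22 peaks with EPZ011989 and 40782 and 44287 with vehicle. The H3K4me3 lists held 23106 and 21086 peaks with EPZ011989 and 22726 and 23804 with vehicle. Sequencing depth is unknown. A stand-in solved from the peak scores, the background in fragments per base, was 0.373 and 0.148 in the EPZ011989 H3K27me3 libraries and 1.12 and 1.63 in the vehicle ones, so lower background and treatment cannot be told apart there. In the H3K4me3 libraries it was 1.48 and 1.24 with EPZ011989 and 0.572 and 0.857 with vehicle. The 4 IgG lists held 4 to 38 peaks, none at the 8 genes. Of 10 Merkel cell and neuroendocrine marker genes, 10 had H3K4me3 in both libraries of either treatment, against 2 of 6 lymphoid, 3 of 6 fibroblast and 1 of 6 keratinocyte markers.

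The promoters on which the results turn are shown first, from 250 bases before to 50 after the start, as listed by RefSeq for GRCh38.p14. CDKN1A and CDKN2D carried both marks over the start in vehicle cells, the second listed start of CDKN2C carried H3K4me3 alone, and the start of CDKN2A that gives p16INK4a carried neither. Capitals mark GGGCGG on either strand, the core of the GC box read by SP1-family factors.
CDKN1A, chr6:36678464-36678763, plus strand: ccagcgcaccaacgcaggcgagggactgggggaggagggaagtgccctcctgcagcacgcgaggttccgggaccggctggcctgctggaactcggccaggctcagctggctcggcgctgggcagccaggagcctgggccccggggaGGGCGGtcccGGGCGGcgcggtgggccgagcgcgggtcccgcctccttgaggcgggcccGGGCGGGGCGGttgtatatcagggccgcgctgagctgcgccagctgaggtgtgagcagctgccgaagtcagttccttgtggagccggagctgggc
CDKN2D, chr19:10568930-10569229, minus strand: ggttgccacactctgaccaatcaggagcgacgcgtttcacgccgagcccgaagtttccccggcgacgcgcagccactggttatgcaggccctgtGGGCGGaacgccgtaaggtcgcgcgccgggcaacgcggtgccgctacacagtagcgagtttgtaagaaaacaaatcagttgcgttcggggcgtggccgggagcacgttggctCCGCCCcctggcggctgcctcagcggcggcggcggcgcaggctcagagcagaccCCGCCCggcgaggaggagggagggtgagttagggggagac
CDKN2C, chr1:50968456-50968755, plus strand: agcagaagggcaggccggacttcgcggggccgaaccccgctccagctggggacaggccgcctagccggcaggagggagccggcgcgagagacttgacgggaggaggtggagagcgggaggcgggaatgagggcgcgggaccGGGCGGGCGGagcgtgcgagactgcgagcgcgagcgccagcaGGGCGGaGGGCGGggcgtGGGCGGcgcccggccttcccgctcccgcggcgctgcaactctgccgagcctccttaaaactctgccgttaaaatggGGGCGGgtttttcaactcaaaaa
CDKN2A, chr9:21974808-21975107, minus strand: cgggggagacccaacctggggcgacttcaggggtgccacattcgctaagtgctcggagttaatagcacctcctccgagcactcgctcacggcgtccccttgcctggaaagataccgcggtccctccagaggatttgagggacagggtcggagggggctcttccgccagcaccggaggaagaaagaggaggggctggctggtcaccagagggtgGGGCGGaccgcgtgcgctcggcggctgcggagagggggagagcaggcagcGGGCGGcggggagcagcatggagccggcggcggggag

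These 4 promoters are all rich in CpG. They hold 29, 36, 37 and 26 CpG pairs in the order shown, where the median of 35116 listed promoters of the same length is 14. GGGCGG, searched on both strands with overlapping matches counted, occurs 4 times at CDKN1A, 3 times at CDKN2D, 6 times at CDKN2C and 2 times at this start of CDKN2A, and at least once in 45.0% of all listed promoters. The motif thus occurs at marked and unmarked starts alike, and a match is a description, not a bound site. In all, 10 listed starts belong to 7 of the 8 genes. CDKN1C has no entry, and the 1 entry for RB1, at 48476450, lies inside the gene.

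**Figure D1:**
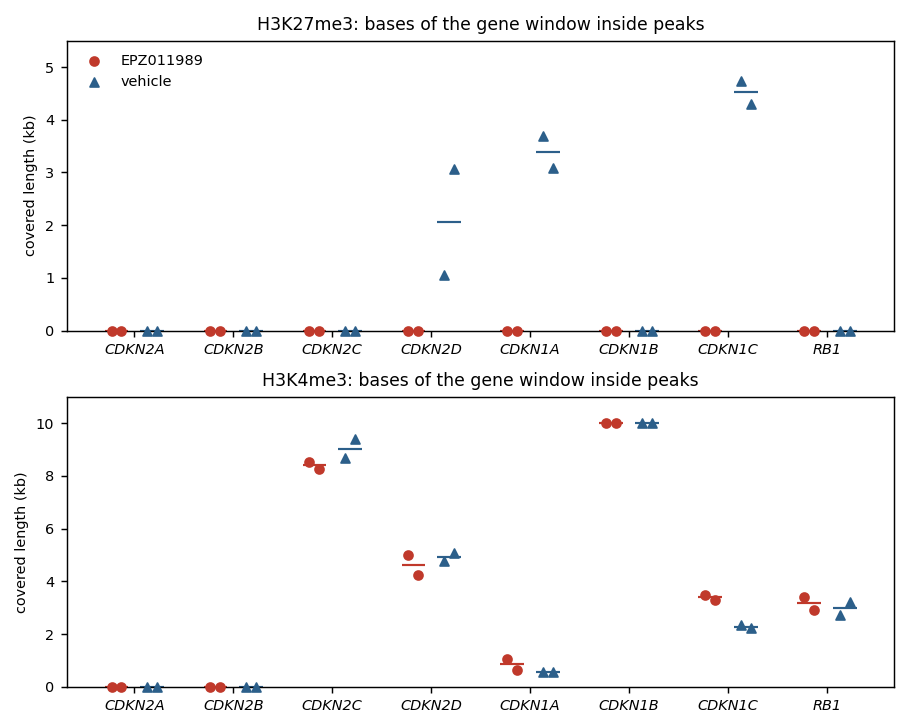
Bases of each gene's window inside peaks (kb), for H3K27me3 above and H3K4me3 below; red circles are the 2 EPZ011989 libraries, blue triangles the 2 vehicle libraries and short lines the means. H3K27me3 is at 0 at every gene with EPZ011989 and above 0 at CDKN2D, CDKN1A and CDKN1C with vehicle, while CDKN1B fills its 10002 bp window with H3K4me3 in every library.

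CDKN2A, which encodes p16INK4a and, from an upstream start, the p53-stabilising protein ARF, and CDKN2B, which encodes the TGF-beta-induced inhibitor p15INK4b, lie side by side at chr9:21967752-21995324 and chr9:22002903-22009313. Their covered length was 0 bp for both marks in the 4 EPZ011989 and the 4 vehicle libraries. None of the 3 listed starts, at 21974857 and 21995324 for CDKN2A and 22009305 for CDKN2B, lay under a peak. Of all genes, 18.8% likewise had no peak of either mark in any of the 8 libraries.

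The stretch without H3K4me3 around this pair was 641 and 574 kb long in EPZ011989 libraries 1 and 2 and 639 and 339 kb in vehicle libraries 1 and 2. Between 3.67% and 7.73% of the intervals between peaks in those libraries were at least as long. For H3K27me3 the stretch was 17275 kb in EPZ011989 library 1, and EPZ011989 library 2 had no peak on the chromosome at all. In vehicle it was 2030 and 2029 kb, a length reached by 0.405% and 0.357% of the intervals in those 2 libraries. The vehicle lists, which together covered 154 and 175 Mb of the genome, thus left a long H3K27me3-free stretch here.

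The nearest genes on both sides carried H3K4me3. MTAP, the methylthioadenosine phosphorylase gene and the nearest protein-coding neighbour of CDKN2A, had an H3K4me3 covered length of 3836 and 3532 bp with EPZ011989 and 3536 and 3528 bp with vehicle. Its H3K27me3 covered length was 0 bp in both EPZ011989 libraries and 1289 and 361 bp in the vehicle libraries. DMRTA1, the next gene beyond CDKN2B, had an H3K4me3 covered length of 3347 and 2814 bp with EPZ011989 and 3321 and 3211 bp with vehicle. Between CDKN2B and DMRTA1 lay isolated small peaks. A peak of 403 bp in the H3K27me3 list of EPZ011989 library 1 lay 34.5 kb past CDKN2B. In the H3K4me3 lists, EPZ011989 library 2 had a peak of 429 bp nearer to DMRTA1, and vehicle library 2 had one of 374 bp at 135 kb past CDKN2B. Peak lists do not show whether a region is mappable or present in the cells, and the copy number of this locus was not tested.

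**Figure D2:**
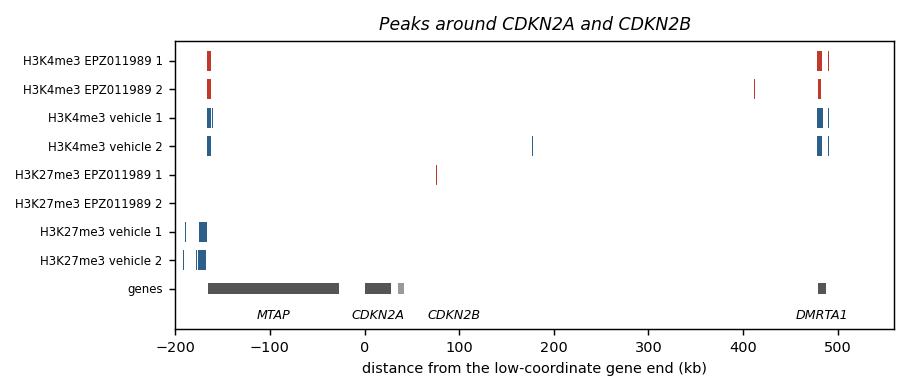
Peaks in the 8 antibody libraries around CDKN2A and CDKN2B, with distance from the low end of CDKN2A (kb) across and 1 row per library, EPZ011989 rows above vehicle rows for each mark; bars are peaks, the narrowest drawn at a minimum width, and gene boxes are to scale. The interval over CDKN2A and CDKN2B is empty in every row, between H3K4me3 peaks at MTAP and DMRTA1.

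CDKN2C, which encodes p18INK4c, held H3K4me3 and no H3K27me3 in all libraries. Its H3K4me3 covered length was 8546 and 8271 bp with EPZ011989 and 8689 and 9396 bp with vehicle, so both EPZ011989 values lay below both vehicle values, as at 12.7% of the 13796 genes tested for this mark. The difference of -634 bp (SE 469, adjusted p = 0.777 by limma with Benjamini-Hochberg adjustment over all genes) was not past the threshold of 0.05. Over the gene from end to end the values overlap, at 14735 and 13707 bp with EPZ011989 and 14695 and 15967 bp with vehicle. All 3 listed starts lay under H3K4me3 in every library.

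One of its peaks was among the widest of the genome. It measured 19312 and 17215 bp with EPZ011989 and 19204 and 19295 bp with vehicle. Ranked by width within each list it was number 7 and number 6 with EPZ011989 and number 11 and number 10 with vehicle. It covers the last 2 listed starts and the high end of the gene. A separate peak of 3941 and 3657 bp with EPZ011989 and 4298 and 4526 bp with vehicle covered the low end, and it also lay in the window of FAF1, the neighbouring gene 0.478 kb away.

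CDKN2D, which encodes p19INK4d, carried both marks in vehicle cells. Its H3K27me3 covered length was 0 bp in both EPZ011989 libraries and 1063 and 3071 bp in vehicle libraries 1 and 2. The groups do not overlap, but the vehicle values differ nearly as much from each other as from 0, and the difference of -2067 bp (SE 892) had an adjusted p of 0.170 by limma. With only peaks of −log10 q of 5 or more counted, the difference was -1261 bp and the adjusted p was 0.0201. The H3K27me3 peaks there were short, 403 and 660 bp in vehicle library 1 and 1612 and 1459 bp in vehicle library 2, and in each library one lay over the start shown above.

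H3K4me3 at CDKN2D lay in a peak at each end. The covered length was 4998 and 4234 bp with EPZ011989 and 4783 and 5074 bp with vehicle, and these values overlap. Of these bases, none carried H3K27me3 with EPZ011989, and 22.2% and 60.5% did so with vehicle. Each H3K4me3 library was set against the H3K27me3 library of the same treatment and number, a match the labels do not give. Other matches could change these shares. The gene sits 0.45 kb from KRI1, whose yeast counterpart acts in ribosome assembly and whose window shares peaks of both marks with it. The shared peaks cannot be given to 1 gene. The H3K27me3 peak of 660 bp over the CDKN2D start in vehicle library 1 did not reach the KRI1 window. On its other side, 3.69 kb away, AP1M2, which encodes an epithelial clathrin-adaptor subunit, had an H3K27me3 covered length of 0 bp in both EPZ011989 libraries and 6836 and 7771 bp in the vehicle libraries.

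CDKN1A encodes p21, the inhibitor that p53 switches on after DNA damage. Its H3K27me3 covered length was 0 bp in both EPZ011989 libraries and 3695 and 3089 bp in the vehicle libraries. The groups do not overlap, as at 76.8% of the genes tested for this mark, and the window fell by 3392 bp with EPZ011989 (SE 270, adjusted p = 0.00588, limma). Of the 9601 genes with an H3K27me3 peak in at least 1 of the 4 libraries, 60.2% were called lower and none higher, also at an unadjusted p of 0.05. A window at 0 bp with EPZ011989 enters this fit only through its vehicle peaks, so for the members tested the direction was fixed by that filter. The limma call on CDKN1A was lost when either EPZ011989 library was left out, with an adjusted p of 0.0691 without the first and 0.0694 without the other, at the same difference in bases. In the full fit both EPZ011989 values were 0 bp, so that pair had no spread. The p-value there also rests on the vehicle spread, with 2 equal zeros taken as replicates. With 1 EPZ011989 library the spread likewise comes from the vehicle pair alone, and the lone library is assumed to vary like it.

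The listed start of CDKN1A, at 36678714, lies inside the annotated gene at chr6:36676463-36687332. Counted within 2500 bp of it, a window chosen after the values were seen, H3K27me3 covered 0 bp in both EPZ011989 libraries and 4988 and 5001 bp in the vehicle libraries, where 5001 bp is the whole window. The vehicle peaks over the start were 5013 and 7206 bp wide, against a median of 1305 and 1382 bp over all peaks of those 2 lists. The start was under H3K4me3 in all 4 libraries, in a peak of 3343 and 2917 bp with EPZ011989 and 2643 and 2799 bp with vehicle. Of the H3K4me3 bases across the gene, none carried H3K27me3 with EPZ011989, and 64.1% and 95.2% did so with vehicle, between libraries of the same number.

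The H3K4me3 covered length of the CDKN1A window was 1049 and 647 bp with EPZ011989 and 551 and 545 bp with vehicle. Both EPZ011989 values exceed both vehicle values, by a mean of 300 bp (SE 200, adjusted p = 0.749, limma), which is not past the threshold. Over the gene from end to end, H3K4me3 covered 4650 and 4190 bp with EPZ011989 and 4122 and 3623 bp with vehicle, again without overlap, as at 23.3% of genes, and again not past the threshold (adjusted p = 0.735, limma).

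**Figure D3:**
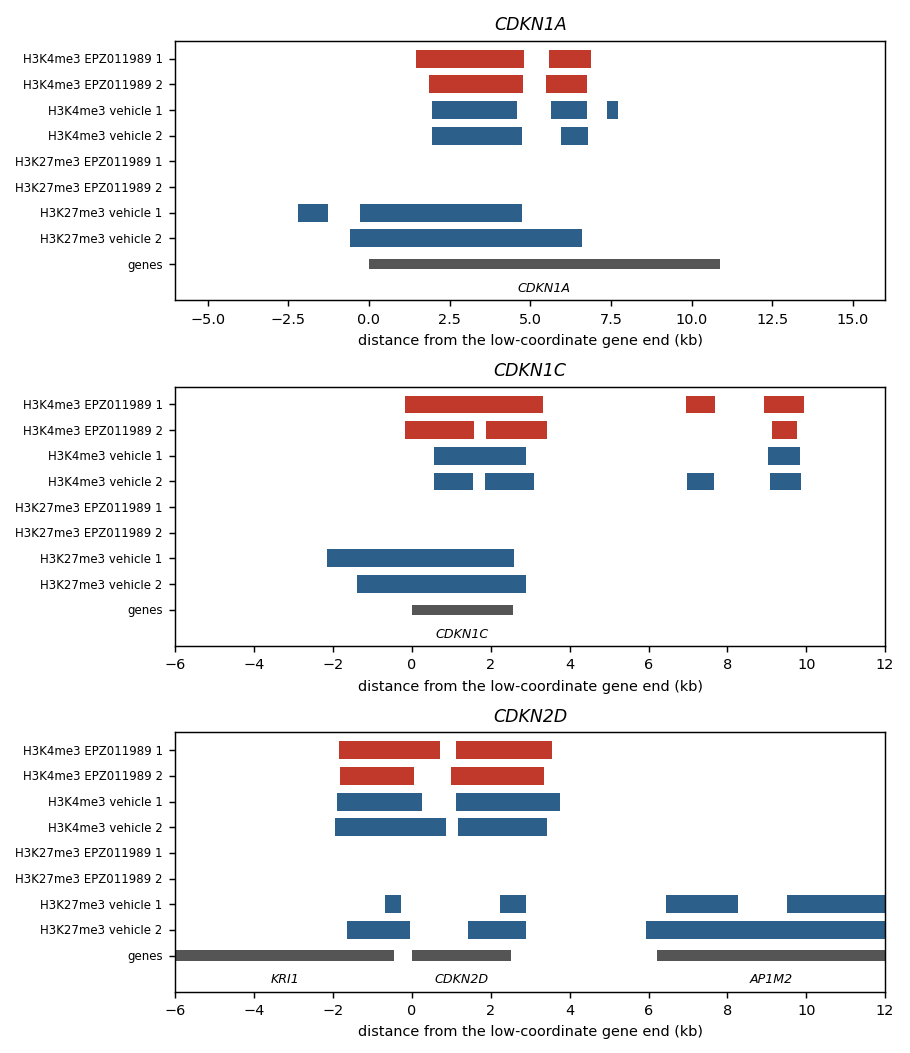
Peaks around CDKN1A, CDKN1C and CDKN2D, with distance from the low end of each gene (kb) across and 1 row per library, EPZ011989 rows above vehicle rows for each mark; bars are peaks, the narrowest drawn at a minimum width. The H3K27me3 rows hold no peak over these genes with EPZ011989 and 1 or more with vehicle, and the H3K4me3 rows hold peaks in all 4 libraries.

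CDKN1C encodes p57, an imprinted inhibitor of the chromosome 11 growth-control domain, and lies at chr11:2883218-2885775. Its H3K27me3 covered length was 0 bp in both EPZ011989 libraries and 4743 and 4297 bp in the vehicle libraries. The window fell by 4520 bp with EPZ011989 (SE 199, adjusted p = 0.00171, limma), under the same filter as CDKN1A. Here too the EPZ011989 pair had no spread. With either EPZ011989 library left out, and the spread again from the vehicle pair alone, the adjusted p was 0.0358 or 0.0361. In each vehicle library a single H3K27me3 peak covered the gene from end to end. Whether it lies on 1 or both parental copies was not tested.

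H3K4me3 at CDKN1C covered more bases in both EPZ011989 libraries than in either vehicle library. It covered 3490 and 3304 bp with EPZ011989 and 2344 and 2221 bp with vehicle. The groups do not overlap, and the difference of 1114.5 bp (SE 202) had an unadjusted p of 0.00214 and an adjusted p of 0.190 by limma. It passed the threshold in limma when all genes were kept in the fit (adjusted p = 0.0157) or when libraries were scaled to their total covered length (adjusted p = 0.0388), and in the 9 other settings the adjusted p was 0.203 to 1. Library by library, the mark lay in 1 peak of 3490 bp or in 2 peaks of 1764 and 1540 bp with EPZ011989, and in 1 peak of 2344 bp or in 2 peaks of 988 and 1233 bp with vehicle. The estimated background was also higher in both EPZ011989 H3K4me3 libraries, and the median H3K4me3 peak over the whole list measured 1696.5 and 1609 bp with EPZ011989 and 1453 and 1354 bp with vehicle, and their part in the difference was not tested. With vehicle, 86.5% and 91.4% of the H3K4me3 bases at CDKN1C also carried H3K27me3, between libraries of the same number.

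CDKN1B, which encodes p27, carried H3K4me3 alone. Its H3K27me3 covered length was 0 bp in all 4 libraries, and the nearest vehicle H3K27me3 peaks lay 117 and 115 kb away on the low side. H3K4me3 filled all 10002 bp of the window in every library, so this measure could not have shown a rise. The peak itself measured 13987 and 13810 bp with EPZ011989 and 13574 and 14072 bp with vehicle, which overlap. By width it ranked number 23 of 23106 and number 17 of 21086 with EPZ011989 and number 31 of 22726 and number 27 of 23804 with vehicle. The same peak reached the windows of GPR19, 0.122 kb away, and of APOLD1, 3.55 kb away on the other side.

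RB1, at chr13:48303751-48481890, had an H3K4me3 peak over its low end and no H3K27me3 in any library. The peak measured 3392 and 2930 bp with EPZ011989 and 2739 and 3208 bp with vehicle, all of it inside the window. These values overlap, and the difference of 187.5 bp (SE 275, adjusted p = 0.905, limma) was not past the threshold. The nearest vehicle H3K27me3 peaks began 9.76 and 10.5 kb past the high end of the gene. Its relatives RBL1 and RBL2, which encode the pocket proteins p107 and p130, likewise had H3K4me3 in all 4 libraries and H3K27me3 in none.

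**Figure D4:**
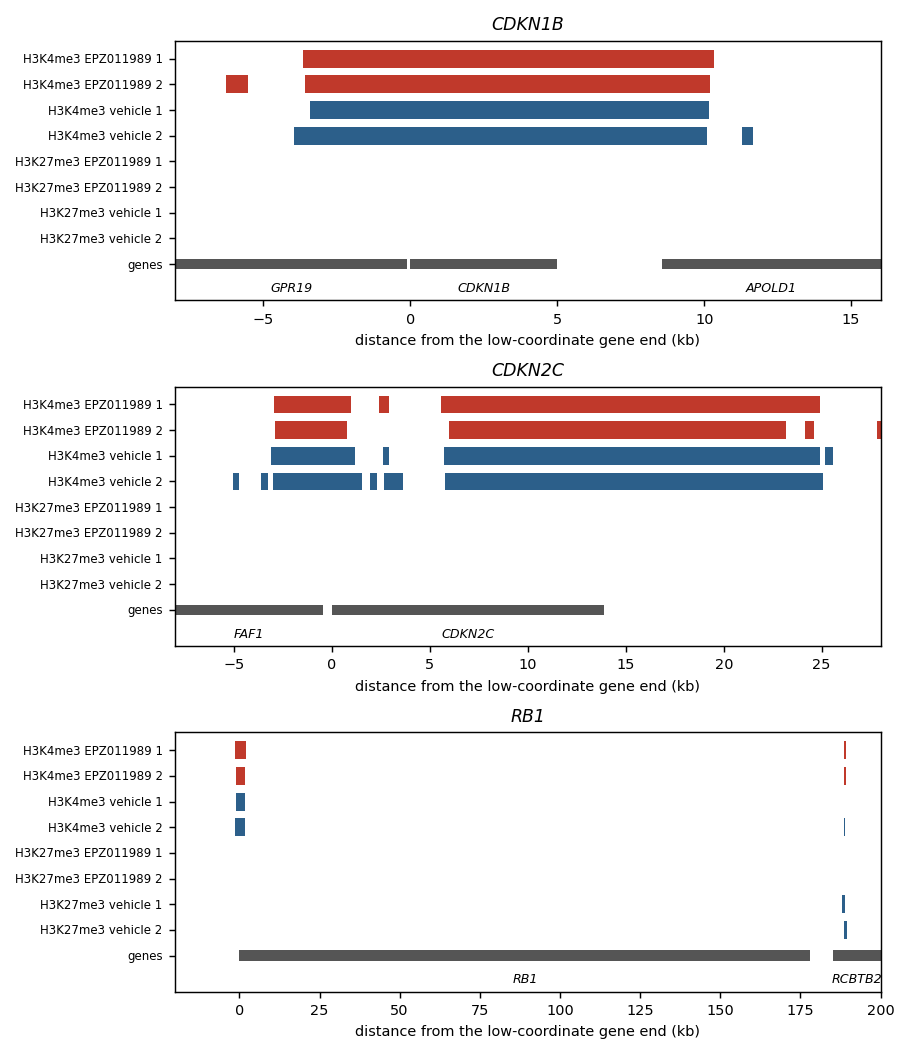
Peaks around CDKN2C, CDKN1B and RB1, with distance from the low end of each gene (kb) across and 1 row per library, EPZ011989 rows above vehicle rows for each mark; bars are peaks, the narrowest drawn at a minimum width. H3K4me3 lies in all 3 windows in every library, in peaks of over 17 kb at CDKN2C and over 13 kb at CDKN1B but only over the low end of RB1. No H3K27me3 peak touches these windows.

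Counted together, 3 of the 8 genes carried H3K27me3 in both vehicle libraries, where 36.9% of all genes did. All 3 had lost it in both EPZ011989 libraries, as had 99.6% of all genes so marked, and 2 of the 3 were called lower. Both marks were present in both vehicle libraries at 3 of the 8, against 24.2% of all genes. Over all 8 genes the median H3K27me3 difference was 0 bp, since 5 had no such peak in any library. The summed covered length was 0 bp in both EPZ011989 libraries and 9501 and 10457 bp in the vehicle libraries. With 2 libraries against 2, an exact permutation test of such a sum cannot go below p = 0.33.

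For H3K4me3, 6 of the 8 windows held a peak in every library, where 65% of all genes had one in both vehicle libraries. None of the 6 was called, nor was any of the 13796 genes tested (limma). At an unadjusted p of 0.05, 1160 genes (8.41%) were higher and 204 (1.48%) lower, and CDKN1C was the 1 member among them. Covered length was above both vehicle values in both EPZ011989 libraries at 2 of these 6 genes, CDKN1A and CDKN1C, a pattern met at 24.4% of all genes tested and at 40.5% of the 4839 genes that carried both marks in vehicle. The median difference was 93.75 bp over the 6 and 52 bp over all genes tested. The sum was 31477 and 29388 bp with EPZ011989 and 29108 and 30446 bp with vehicle, which overlap.

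Other genes resembled the 3 H3K27me3-marked members over the 8 libraries, by Euclidean distance of covered length. Closest to CDKN1A were LOC101927375 at 459 bp, C10orf53 at 522.5 bp and RARRES1, a retinoic acid-responsive gene, at 584 bp. Closest to CDKN1C were THSD7B at 629 bp, MAD2L2, which encodes a mitotic checkpoint and DNA-damage tolerance protein, at 640 bp, and SALL1, a zinc-finger developmental regulator, at 754 bp. Closest to CDKN2D were MCRIP1 at 784 bp, AP2A1 at 853 bp and KDELR1 at 926 bp.

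In this and the following lists, H3K27me3 is said to fall only where limma called it lower at an adjusted p under 0.05. Among the kinases and cyclins that the INK4 proteins act on, H3K27me3 fell at 5 of 5. CDK6 had 0 bp in both EPZ011989 libraries and 5001 bp in both vehicle libraries, and CCND3 had 0 bp in both EPZ011989 libraries and 3301 and 3239 bp in the vehicle libraries. CCND1 and CCND2, the other leading members of that list, had 0 and 2669 bp as their highest EPZ011989 values and 8802 bp or more with vehicle. CDK4 was called only narrowly (adjusted p = 0.0494, limma). It had 0 bp in both EPZ011989 libraries and 870 and 1456 bp with vehicle. Of all 19974 genes, 29% were called lower, and the lists were chosen with earlier results of these data known. Of the E and A cyclins and CDK2, 2 of 5 had the mark in both vehicle libraries and 1 fell, the meiotic cyclin gene CCNA1 (0 bp in both EPZ011989 libraries, 2710 and 2935 bp with vehicle). Of the 9 mitotic cyclin and CDK1 genes 0 had the mark in both vehicle libraries and 0 fell, and of the 10 E2F and DP genes 1 had it and 0 fell. That 1 gene, TFDP2, had 0 bp in both EPZ011989 libraries and 58 and 432 bp with vehicle. A missing call thus does not mean that the mark stayed. At the DREAM complex, which silences cell-cycle genes together with RBL1 or RBL2, 2 of 7 fell, LIN52 and LIN37, from covered lengths under 1 kb in vehicle.

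Among regulators of the inhibitors, H3K27me3 lay in both vehicle libraries at 9 of 14 regulators of the INK4 locus, at 10 of 14 genes on the TGF-beta route to CDKN2B and CDKN1A, at 5 of 14 p53 target genes, at 1 of 7 genes of inhibitor turnover and at 0 of 6 genes of p53 and its control, where 36.9% of all genes had it. Of all genes, 29% were called lower, and differences between lists were not tested. H3K27me3 fell at 7 of the 14 INK4-locus regulators, among them TBX2, TBX3 and BMI1, which encode repressors of that locus, and HMGA2. TBX2 and TBX3 had 0 bp in both EPZ011989 libraries and their full 10002 bp in both vehicle libraries. It fell at 8 of the 14 genes on the TGF-beta route, including the ligand gene TGFB1, MYC, whose product represses both inhibitors, its relative MYCN, and FOXO1. It fell at 2 of the 14 p53 targets, BBC3 and SESN2, each with 0 bp in both EPZ011989 libraries and 5001 bp in both vehicle libraries, and at none of the p53-control and turnover genes. Called or not, both EPZ011989 values lay below both vehicle values at 5 of the 14 p53 targets and 1 of the 7 turnover genes. The same held at 7372 of all 19974 genes, or 76.8% of the 9601 tested. Of these 2 lists, 6 p53 targets and 3 turnover genes were tested.

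Of 10 genes listed for the chromosome 11 domain of CDKN1C, 8 were matched, and H3K27me3 fell at 6 of these, IGF2, TH, TSPAN32 and ASCL2 foremost. IGF2 and TH had 0 bp in both EPZ011989 libraries and 10002 bp in both vehicle libraries. Falls were not limited to these lists, since 29% of all genes were called lower. H3K27me3 fell at 3 of 6 fibroblast markers, COL1A1, THY1 and COL1A2, at 3 of 6 lymphoid markers, CD4 and CD8A among them, at 1 of 6 keratinocyte markers, KRT10, and at 0 of 10 Merkel cell markers. The Merkel cell marker NEUROD1, though not called, had 0 bp in both EPZ011989 libraries and 1158 and 2462 bp with vehicle. Over the tested genes of each list, the median H3K27me3 difference was -6619.5 bp for chromosome 11, -5001 bp for the D-type cyclins, -4745 bp for the INK4-locus regulators, -4592.5 bp for lymphoid markers, -4401 bp for the TGF-beta route and -3774 bp for fibroblast markers. It was nearer to 0 than the -2234.5 bp of all genes tested for the E and A cyclins at -1845 bp, p53 targets at -1692 bp, keratinocyte markers at -1183.5 bp, Merkel cell markers at -1152.5 bp, turnover at -518 bp, DREAM at -279.5 bp, E2F at -245 bp, p53 control at -222 bp and the mitotic list at -137.5 bp. Many of these medians rest on few tested genes. There was 1 each for the E2F and mitotic lists and 2 each for the E and A cyclins and Merkel cell markers. There were 3 each for turnover, DREAM, p53 control and fibroblast markers. Genes at 0 bp with EPZ011989 were tested only through their vehicle peaks, so the medians do not describe whole lists. No list had an H3K4me3 call in either direction.

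**Figure D5:**
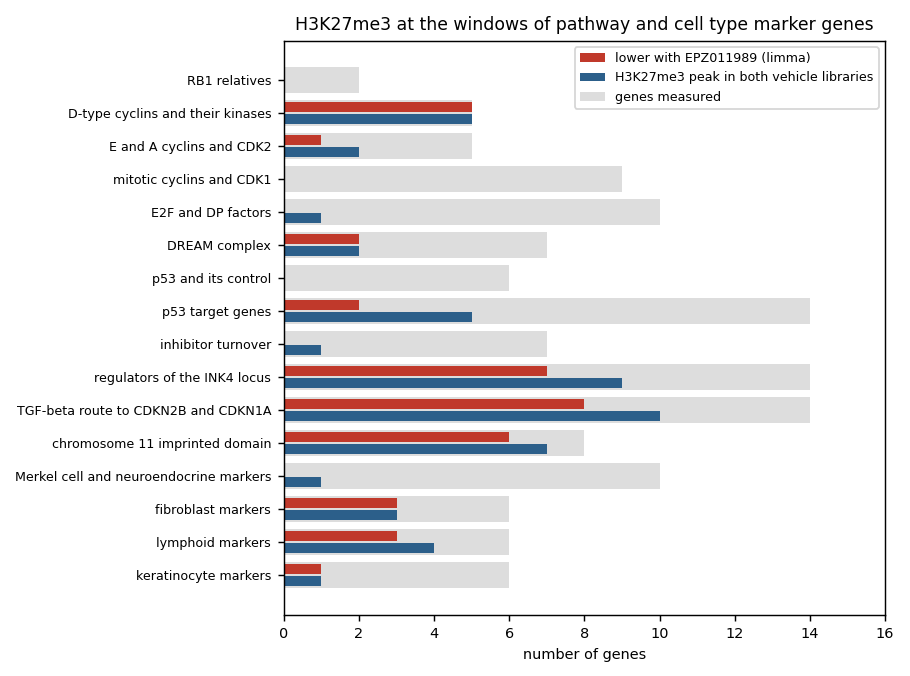
Number of genes per list: red bars, windows with less H3K27me3 covered length with EPZ011989 by limma at an adjusted p under 0.05; blue bars, windows with an H3K27me3 peak in both vehicle libraries; grey bars, genes measured. Calls range from 5 of 5 D-type cyclin genes to none in the mitotic and p53-control lists, with 3 of 6 in the fibroblast and lymphoid marker lists. Of all genes measured, 29% were called lower.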

How the data were processed

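CUT&RUN peak lists of 12 libraries were analysed, 1 per library, on hg38. The submitters' processing notes name MACS2 2.1.1.20160309, Bowtie2 2.2.9, SAMtools 0.1.19 and FastQC. Calling thresholds, control and use of the E. coli spike-in are not given in the sources used here. The authors deposited narrow peaks for IgG and H3K4me3 but broad ones for H3K27me3, so widths were compared within a mark only. Each deposited peak has a fold (a ratio of pileup to local background), a −log10 p, a −log10 q and a score made from the q by the authors' software. H3K4me3 and IgG lists as deposited also hold a summit offset. Read counts were not used here and depth is unknown.

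Gene positions came from RefSeq (GRCh38.p14) for 19974 protein-coding genes of the 22 autosomes and the X chromosome. Covered length was computed per window without scaling, where an overlap of 1 bp counted as marked. It was tested per mark with limma 3.58.1 (trend, robust; R 4.3.3) on every gene that any of the mark's 4 libraries covered, and p-values were Benjamini-Hochberg adjusted (threshold 0.05). Python 3.11.15 with numpy 2.4.6, pandas 2.3.3 and scipy 1.17.1 did the rest. On simulated data, false calls made up more than the nominal share of the H3K27me3 calls. The simulation changed a small part of the windows and kept the rest at vehicle level, whereas 60.2% of tested genes were called here. Its share of false calls therefore cannot be carried over, and the share among the calls at CDKN1A, CDKN1C and the lists is unknown. The background per base was solved from the most frequent fold and its −log10 p under a Poisson model.

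The 8 genes and all lists were chosen with earlier results of these data known. All 8 are named, and each list gives up to 4 called genes with the largest differences, or values only where none was called. CDK4 was added to complete its list. Alternatives covered stricter peaks, other windows, the filter, scaling, a replicate block and leaving out each library. Library numbers were not taken to pair the treatments, because the labels do not say so. Deviations of same-numbered libraries correlated at 0.0162 for H3K27me3 and -0.0296 for H3K4me3. With EPZ011989, only 39 and 2 of the 19974 genes had any H3K27me3, so the H3K27me3 value cannot speak to pairing.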

Additional observations from a re-analysis of the deposited data

How the results depend on the processing

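Of 228 recomputed values, 187 kept their direction and side of the threshold or stayed within 1.5 times or the replicate spread. H3K27me3 genes called lower, 5784 in all, numbered 3301 with only peaks of −log10 q of 5 or more, 3716 with windows at the gene start only, and 3210 to 8885 with 1 library left out. Genes called higher, 0 by limma and 0 at an unadjusted p of 0.05, numbered 0 to 7 with 1 library left out. The 2 members called lower became 1 with start windows, where CDKN1C has no strand entry, and 1 to 3 with 1 library left out; without EPZ011989 library 1 or 2 the member lost was CDKN1A. Without a vehicle library the remaining values at these windows have no spread in the EPZ011989 pair, so those p-values say nothing about stability. The summed H3K27me3 difference of -9979 bp was -8713 bp with the stricter peaks, -6313.5 bp with windows of 1000 bp, -14052.5 bp with windows of 5000 bp, -4451.5 bp at starts, -13156.5 bp over whole genes, and -10457 to -9501 bp with 1 library left out. The sum at starts leaves out CDKN1C, whose difference was -4520 bp in the main windows. Start windows were computed only for the 15813 of 19974 genes with a strand entry. The 3716 genes called there thus come from a smaller set than the 5784. The median member peak in vehicle library 1 was 2701.5 bp wide with stricter peaks and 920 bp otherwise.

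H3K4me3 genes called lower, 0 by limma with 204 at an unadjusted p of 0.05, were 4 with windows of 1000 bp, 32 without the filter and 26 when scaled to total covered length. Genes called higher, 0 with 1160 unadjusted, were 2 with windows of 1000 bp, 35 with 5000 bp, 4 over whole genes, 491 without the filter and 353 when scaled. The member called in the last 2 settings, 1 in each, was CDKN1C. The summed H3K4me3 difference of 655.5 bp turned to -225.5 bp with windows of 5000 bp and -370.5 bp at starts. The sum at starts again leaves out CDKN1C, whose H3K4me3 difference was 1114.5 bp in the main windows. Its change of sign is therefore not an effect of the window alone. With 1 library left out the sum ran from -389 to 1700 bp. It reversed at -389 bp without EPZ011989 library 1 and -13.5 bp without vehicle library 1. With 1 library left out, the CDKN2D difference of -312.5 bp ran from -694.5 to 69.5 bp, reversed without EPZ011989 library 2, and the RB1 difference of 187.5 bp ran from -47.0 to 422 bp, reversed without EPZ011989 library 1 (-43.5 bp) or vehicle library 1. A replicate block gave 4555 H3K27me3 genes lower, kept both member calls and gave no H3K4me3 call. The H3K27me3 fit without the filter could not be fitted.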
